A study of Homo sapiens with 6 samples.

Results

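A set of 9 amino acid transporters was followed in SK-N-BE(2), a human neuroblastoma cell line that carries extra copies of MYCN, with and without knockdown of Prp19. They were taken as a list of names: SLC7A5, SLC3A2, SLC1A5, SLC7A11, SLC7A1, SLC38A1, SLC38A2, SLC1A4 and SLC43A1. All 9 of 9 were found among the 58302 genes measured, and all 9 passed the filter of a mean of at least 1 FPKM. The study knocked down Prp19, a splicing factor and ubiquitin ligase encoded by PRPF19, by transient transfection of small interfering RNA, and asked how the transcriptome of the cells changes. RNA was sequenced from 3 samples with a control siRNA (siNC, labelled NC) and 3 with siPrp19. The sample labels give 72 h of transfection for both groups, while the methods of the study give a shorter time. All 6 samples come from 1 cell line, so the p-values below measure the spread between these samples and not between patients. In the fits that spread is pooled in part over genes.

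Cells cannot take up amino acids through the lipid membrane, and solute carriers (SLC) bring them in. Some are obligatory exchangers that trade one amino acid for another, others are driven by the sodium gradient, and a few let amino acids run down their gradient. Growing tumour cells use them to feed protein synthesis, to hold mTORC1 active through leucine and arginine, and to supply cystine for glutathione. MYC family proteins and ATF4, the transcription factor of the amino acid response, are known activators of several of these genes. All values are of mRNA and carry no information on transport activity.

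Levels are given as FPKM, fragments per kilobase of gene relative to sequencing depth, which divides by length and so allows genes to be compared. The deposited values could be turned back into whole reads, and the members rest on 236 to 14469 reads per sample, out of 19058782 to 24181789 reads on genes. PRPF19 stood at 53.1, 53.1 and 64.9 FPKM in the siNC samples (replicates 1, 2 and 3, the order used throughout) and at 21.8, 28.5 and 33.6 FPKM in the siPrp19 samples, so the targeted gene was lower in every siPrp19 sample than in every siNC sample. Markers of neuroblastoma were present, with 13 of 13 at a mean of at least 11.0 FPKM and a summed level of 2553 to 2802 FPKM in siNC and 2515 to 3124 FPKM in siPrp19. Of 15 markers of other cells, 4 reached a mean of 1 FPKM. Their summed level was 69.0 to 83.7 FPKM in siNC and 68.4 to 81.8 FPKM in siPrp19, nearly all of it COL1A1 and PDGFRB. The other 13 of these markers did not exceed 2.48 FPKM in any sample, and KRT5, SOX10 and CD3E were listed at 0.

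Stretches upstream of RefSeq start sites are shown for 3 genes, SLC7A5 as the most abundant member and SLC38A1 and SLC38A2 as neighbours on chromosome 12. They are from RefSeq on GRCh38.p14, 140 bases each, on the minus strand at chr16:87869508-87869647, chr12:46267988-46268127 and chr12:46372868-46373007, and end 1, 1 and 95 bases before a start site, outside annotated exons. SLC38A1 has 2 RefSeq windows, and the stretch shown belongs to the one farther upstream, which lies inside the gene as GENCODE bounds it. Capitals mark an E-box.
SLC7A5: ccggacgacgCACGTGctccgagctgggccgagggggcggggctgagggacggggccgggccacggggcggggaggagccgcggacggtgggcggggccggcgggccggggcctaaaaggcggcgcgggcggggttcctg
SLC38A1: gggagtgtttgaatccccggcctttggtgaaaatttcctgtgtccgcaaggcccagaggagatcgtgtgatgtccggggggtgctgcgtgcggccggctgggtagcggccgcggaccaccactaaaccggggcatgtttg
SLC38A2: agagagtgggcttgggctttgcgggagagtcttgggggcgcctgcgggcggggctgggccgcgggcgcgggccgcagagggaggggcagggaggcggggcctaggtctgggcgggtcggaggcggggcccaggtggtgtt

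A search for 3 motifs was run on both strands, in windows of 250 bases before and 50 bases after each start, in 15 windows of 8 of the 9 members. No window was held for SLC7A11. The E-box CACGTG, bound by MYC family proteins, lay in 3 of the 15 windows, 1 each of SLC7A5, SLC43A1 and SLC1A5, and in 7.26% of all 35116 windows. In SLC7A5 it began 130 bases before the start. TGATGCAA, the composite element that ATF4 binds with C/EBP proteins (TTGCATCA on the other strand), lay in 2 windows, of SLC1A4 and SLC1A5, and in 0.866% of all windows. ACATTCC, the core bound by the TEAD partners of YAP (GGAATGT on the other strand), lay in 0 of the 15 and in 3.46% of all windows. The 3 motifs do not share letters in these matches. These are matches of letters, and binding was not measured.

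The 9 transporters differed widely in level. SLC7A5 had a mean of 91.7 ± 14.5 FPKM with siNC (SD, n = 3) and SLC38A2 84.2 ± 25.5 FPKM. SLC3A2 followed with 41.8 ± 10.7 FPKM and SLC38A1 with 40.4 ± 7.25 FPKM, then SLC1A5 with 29.3 ± 7.97 FPKM and SLC7A1 with 14.4 ± 2.75 FPKM. SLC7A11 (6.34 ± 2.96 FPKM), SLC43A1 (5.53 ± 0.656 FPKM) and SLC1A4 (2.67 ± 0.880 FPKM) were the lowest. Neighbours in this order that held it in 6 of 6 samples were SLC38A2 above SLC3A2, SLC38A1 above SLC1A5, SLC1A5 above SLC7A1, SLC7A1 above SLC7A11, and SLC43A1 above SLC1A4. SLC7A5 exceeded SLC38A2 in 5 of 6 samples. SLC3A2 and SLC38A1 changed places between samples, each higher in 3 of 6, and so did SLC7A11 and SLC43A1. Summed over the 9 genes the level was 262.1, 359.4 and 327.5 FPKM in the siNC samples and 235.3, 346.9 and 306.4 FPKM with siPrp19.

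**Figure D1:**
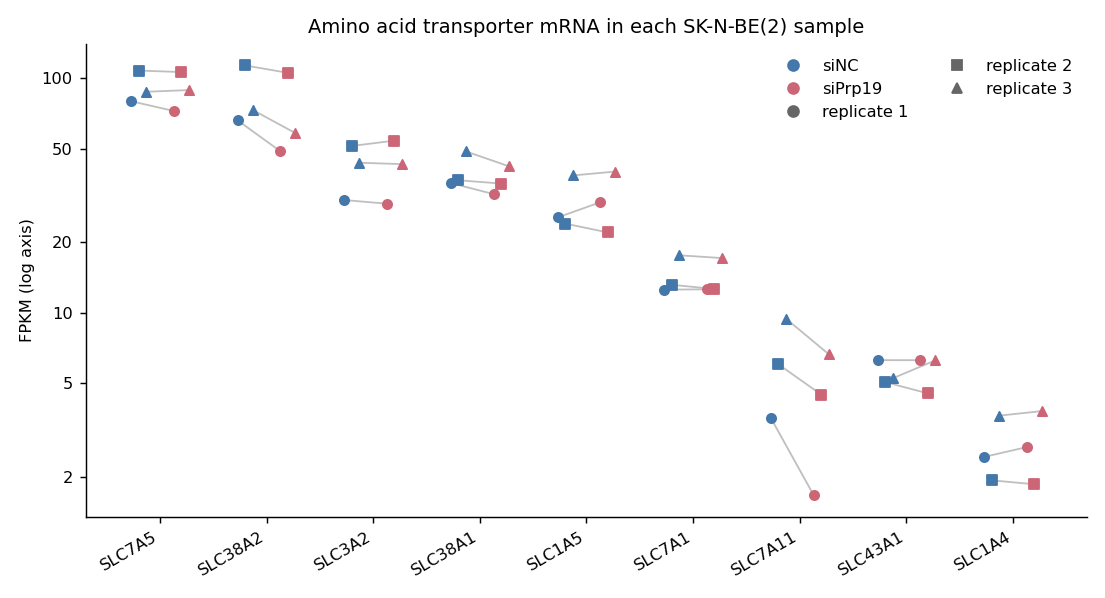
FPKM of each transporter (log axis) in the 6 samples, ordered by mean level with siNC. Blue points are siNC, red points siPrp19, marker shapes are replicate numbers and grey lines join same-numbered samples. The levels run from 1.67 FPKM for SLC7A11 to 113.3 FPKM for SLC38A2, and the red and blue points of every gene overlap.

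Without pairing, the differences between siPrp19 and siNC lay within the spread of the replicates for 9 of 9 transporters. In the test across 14462 genes (limma on log2(FPKM + 0.1), Benjamini-Hochberg adjustment, FDR under 0.05), 0 of 9 members were called. The background was 0% of all genes called, with 225 genes at an unadjusted p under 0.05, of which 0 were members. PRPF19 was not called there either (log2 change −1.04, limma adjusted p = 0.9999). The 2 groups overlapped for 9 of 9 members, and 5.61% of all tested genes had groups that did not overlap. The exact two-sided permutation test gave p = 0.5 to 1.0 for the 9 members, and 3 samples against 3 cannot give less than 0.10.

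Same-numbered samples of both groups moved away from their group means in parallel, with correlations across genes of 0.381, 0.568 and 0.639, so the changes were also read within same-numbered pairs. SLC7A11, SLC38A1 and SLC38A2 were lower with siPrp19 in 3 of 3 pairs, and 0 members were higher in 3 of 3. Of all tested genes, 21.3% were lower and 19.2% were higher in all 3 pairs. The same 3 genes had an unadjusted p under 0.05 in the paired limma fit, as did 15.7% of all genes, and 0 of 9 passed an FDR of 0.05 there, as did 0% of all genes. In a fit of limma voom to recovered reads, paired likewise, which weights log counts by their precision, SLC7A11 and SLC38A2 passed the FDR of 0.05, both lower, and so did PRPF19 (adjusted p = 1.03e-11). PRPF19 also passed in the paired limma fit limited to genes averaging 5 FPKM or more (adjusted p = 0.0176), in which 0 members did. Voom with pairing called 4.41% of 13607 genes lower and 2.65% higher. The median log2 change of the 9 members was −0.03, beside −0.0040 over all tested genes.

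**Figure D2:**
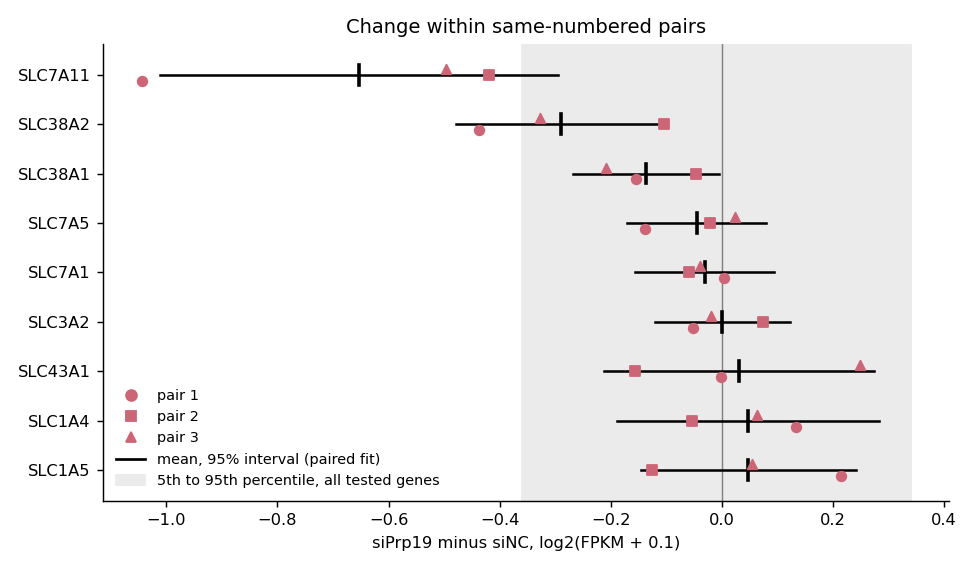
Change of each transporter (siPrp19 minus siNC, log2(FPKM + 0.1)) within pairs 1, 2 and 3, with the mean and its 95% interval from the paired fit. The grey band spans the 5th to the 95th percentile of all tested genes, from −0.36 to 0.34. SLC7A11, SLC38A2 and SLC38A1 have all 3 pairs below 0, and the mean of SLC7A11 lies below the band.

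SLC3A2 (ENSG00000168003, chromosome 11, 62856102 to 62888875, plus strand) encodes CD98hc, the heavy chain that carries light chains such as those of SLC7A5 and SLC7A11 to the cell surface. It had 30.2, 51.4 and 43.6 FPKM with siNC and 29.2, 54.2 and 43.0 FPKM with siPrp19. Replicate 1 was lowest and replicate 2 highest in both groups, and the values of the groups lay on each other. The log2 change was 0.0013 (standard error 0.28, limma adjusted p = 0.9999), and the paired 95% interval ran from −0.12 to 0.12.

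SLC7A5 (ENSG00000103257, chromosome 16, 87830023 to 87869488, minus strand) encodes LAT1, which brings in leucine and other large neutral amino acids in exchange for glutamine. It had 79.8, 107.8 and 87.5 FPKM in the siNC samples and 72.5, 106.2 and 89.0 FPKM in the siPrp19 samples. The samples of replicate 2 were the highest of each group, and siPrp19 was lower in pairs 1 and 2 and higher in pair 3. For SLC7A5, the log2 change was −0.05 (standard error 0.19, limma adjusted p = 0.9999), with a paired interval from −0.17 to 0.08. The pseudogene SLC7A5P1 had 5.03 to 9.43 FPKM, and reads of near-identical copies may be split between them.

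SLC7A11 (ENSG00000151012, chromosome 4, 138164097 to 138242349, minus strand) encodes xCT, the light chain that imports cystine in exchange for glutamate and so feeds glutathione synthesis. It had 3.55, 6.03 and 9.45 FPKM with siNC, from 747, 1024 and 1802 reads. The siPrp19 replicates had 1.67, 4.48 and 6.67 FPKM, from 366, 899 and 1595 reads. Each siPrp19 sample lay below the siNC sample of its number, at 47.0%, 74.4% and 70.6% of it, but the groups overlapped because replicate 1 was low and replicate 3 high in both. The mean with siPrp19 was 67.4% of siNC. In bulk RNA, fewer cells that express a gene and less RNA in each cannot be told apart. SLC7A11-AS1, annotated over it on the other strand, had 0.236 to 0.492 FPKM. The log2 change of SLC7A11 was −0.65, with a standard error of 0.55 and a limma adjusted p of 0.9999 without pairing. In the paired fit the standard error was 0.14, the 95% interval −1.01 to −0.30 and the limma adjusted p 0.204.

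The change of SLC7A11 was the most negative of the 9, at place 277 among 14462 genes ordered from the largest decrease. In voom with pairing it was −0.61 with an adjusted p of 2.31e-05. Over all fits with pairing, pairs left out included, its adjusted p ran from 6.18e-11 to 0.508, and it passed only on the recovered reads. There it passed with each of the 3 pairs left out, at log2 changes of −0.47, −0.695 and −0.69. With or without a pair left out, the voom p-values rest mostly on a spread pooled over genes. They say little about the spread of SLC7A11 itself between pairs, where its log2 changes were −1.04, −0.42 and −0.50. Without siPrp19 replicate 1 the unpaired log2 change was −0.10, the smallest of the 6 fits that left out a sample, and all 6 were below 0.

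The light chains of SLC3A2 were also compared with each other. Of the summed FPKM of SLC7A5, SLC7A6, SLC7A7, SLC7A8, SLC7A10 and SLC7A11, SLC7A5 held 84.7% to 93.6% in the 6 samples. SLC7A11 held 4.09%, 5.15% and 9.13% in the siNC replicates and 2.15%, 3.94% and 6.55% in the siPrp19 replicates, a smaller share in each of the 3 pairs, with overlapping groups. SLC7A6, which exchanges cationic for neutral amino acids, held 2.19% to 5.46%. The ratio of SLC7A5 to SLC3A2 stayed between 1.96 and 2.64, and that of SLC7A5 to SLC7A11 was 22.5, 17.9 and 9.27 with siNC and 43.4, 23.7 and 13.4 with siPrp19.

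SLC7A1 (ENSG00000139514, chromosome 13, 29509410 to 29595688, minus strand) encodes CAT1, which carries arginine and lysine without a heavy chain. It had 12.6, 13.2 and 17.6 FPKM with siNC and 12.6, 12.6 and 17.1 FPKM with siPrp19. Replicate 3 was the highest of each group, and no pair differed by as much as the full range of the replicates. SLC7A1 differed by a log2 value of −0.03 (standard error 0.19, limma adjusted p = 0.9999), with a paired interval from −0.16 to 0.09.

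SLC43A1 (ENSG00000149150, chromosome 11, 57484534 to 57515786, minus strand) encodes LAT3, a facilitator of large neutral amino acids such as leucine. It had 6.28, 5.07 and 5.25 FPKM with siNC and 6.28, 4.53 and 6.27 FPKM with siPrp19. Replicate 2 was lowest in both groups, and pair 1 was nearly equal, pair 2 lower and pair 3 higher with siPrp19. For SLC43A1 the difference on the log2 scale was 0.03 (standard error 0.18, limma adjusted p = 0.9999), with a paired interval from −0.21 to 0.27.

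SLC1A5 (ENSG00000105281, chromosome 19, 46774883 to 46788594, minus strand) encodes ASCT2, the sodium-dependent exchanger known for glutamine uptake. It had 25.5, 24.0 and 38.5 FPKM with siNC and 29.6, 22.0 and 40.0 FPKM with siPrp19. Replicate 3 stood above the others in both groups, and the pairs went in different directions. On the log2 scale SLC1A5 differed by 0.05 (standard error 0.27, limma adjusted p = 0.9999), with a paired interval from −0.15 to 0.24.

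SLC1A4 (ENSG00000115902, chromosome 2, 64988477 to 65023865, plus strand) encodes ASCT1, an exchanger of alanine, serine and cysteine. It had 2.43, 1.93 and 3.64 FPKM with siNC and 2.68, 1.86 and 3.81 FPKM with siPrp19. Its 236 reads in siNC replicate 2 were the fewest of any member in a sample. The order of the replicates was the same in both groups. On average SLC1A4 differed by a log2 value of 0.05 (standard error 0.33, limma adjusted p = 0.9999), with a paired interval from −0.19 to 0.28. The level of SLC1A5 was 10.5 to 12.4 times that of SLC1A4 in the 6 samples.

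SLC38A1 (ENSG00000111371, chromosome 12, 46183063 to 46270017, minus strand) and SLC38A2 (ENSG00000134294, chromosome 12, 46358189 to 46372867, minus strand) encode SNAT1 and SNAT2, which pull glutamine and alanine in with sodium. Their gene bodies are 88171 bases apart. SLC38A2 had 66.1, 113.3 and 73.2 FPKM with siNC and 48.8, 105.4 and 58.4 FPKM with siPrp19. Each siPrp19 sample was below its siNC partner, at 73.8%, 93.0% and 79.7%, while replicate 2 of either group stood above all the samples of replicates 1 and 3. The log2 change was −0.29 (standard error 0.34, limma adjusted p = 0.9999). With pairing the standard error was 0.07, the interval −0.48 to −0.10 and the limma adjusted p 0.216.

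In voom with pairing the log2 change of SLC38A2 was −0.29 with an adjusted p of 0.00127. Over all fits with pairing the adjusted p ran from 5.43e-05 to 0.541. Without the pair of replicate 1 the call was lost (voom adjusted p = 0.0764), and without the pair of replicate 2 or 3 it was kept. With or without a pair left out, the voom p-values rest mostly on a spread pooled over genes. They say little about the spread of SLC38A2 itself between pairs, where its log2 changes were −0.44, −0.10 and −0.33. AC025031.2, an antisense RNA over SLC38A2, had 0.293 to 2.36 FPKM.

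SLC38A1 had 35.7, 36.7 and 48.7 FPKM with siNC and 32.0, 35.6 and 42.2 FPKM with siPrp19. The siPrp19 samples were at 89.8%, 96.9% and 86.5% of their partners, and replicate 3 was highest in both groups. The log2 change was −0.14 (standard error 0.17, limma adjusted p = 0.9999), and with pairing the standard error was 0.05, the interval −0.27 to −0.0051 and the limma adjusted p 0.308. The voom fit with pairing gave an adjusted p of 0.105, so SLC38A1 was called in none of these fits. SLC38A2 had 1.38 to 3.09 times the FPKM of SLC38A1, and the highest ratios were those of replicate 2 in both groups.

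The range of the 3 replicate means exceeded the absolute mean change with siPrp19 for 9 of 9 members. A range and a mean are unlike measures. The share over all tested genes was not computed, so this is not shown to be particular to these genes. The means of the replicate numbers over both groups spanned 1.30-fold for SLC43A1 up to 3.16-fold for SLC7A11. Replicate 2 was highest for SLC7A5, SLC3A2 and SLC38A2, replicate 3 for SLC1A5, SLC7A11, SLC7A1, SLC38A1 and SLC1A4, and replicate 1 for SLC43A1. Pairing lowered the standard errors of the members by 1.87 to 6.03 times. The labels do not say what a replicate number stands for.

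**Figure D3:**
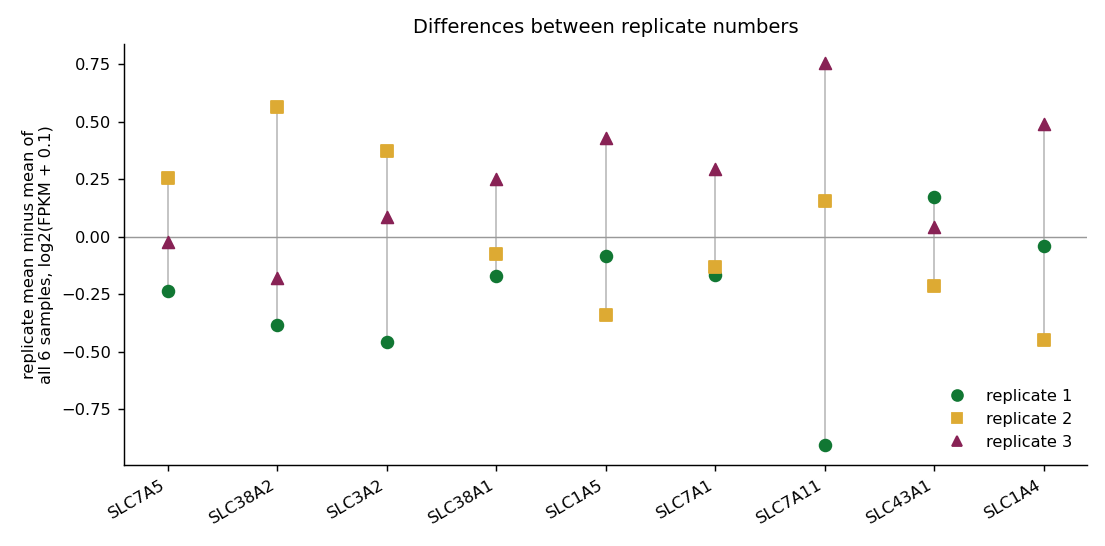
Mean of each replicate number over both groups minus the mean of all 6 samples, in log2(FPKM + 0.1), for the 9 transporters. Circles, squares and triangles are replicates 1, 2 and 3 and grey lines span their range. SLC7A11 has the widest span, from −0.91 for replicate 1 to 0.75 for replicate 3, while the replicate 2 squares lead for SLC38A2, SLC3A2 and SLC7A5.

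For the 3 members with the widest range over the samples, the genes with the most similar profile were looked up, by the root mean square difference of centred log2 values over the 6 samples. For SLC7A11 they were MMP1 (0.247), MT-TL2 (0.270) and RF00096 (0.289), against a range of SLC7A11 itself of 2.43. For SLC38A2 they were ZBTB2 (0.0571), FILIP1L (0.0777) and ADAMTS1 (0.0895), and for SLC1A4 they were KLHL5 (0.0306), ERVK13-1 (0.0311) and LIMD2 (0.0348). The profile of SLC7A11 was matched less closely than those of the other 2. These are descriptions over 6 samples that share the replicate differences above.

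Of 40 other amino acid transporters, 11 reached a mean of 1 FPKM, and 3 were listed at 0 in every sample. Of the 11, 0 were called by limma with or without pairing. In 3 of 3 pairs 4 were lower and 1 was higher, and the median log2 change was −0.05. Of all tested genes, 21.3% were lower and 19.2% higher in all pairs. Voom with pairing called 4.41% of its genes lower and 2.65% higher. SLC6A6, the taurine transporter, had 35.4, 58.0 and 14.2 FPKM with siNC and 25.3, 54.8 and 13.5 FPKM with siPrp19 (log2 change −0.21), and was the 1 gene of the 11 that passed in voom with pairing (adjusted p = 0.0307). SLC36A4 (−0.19), SLC38A9, a lysosomal arginine sensor (−0.15), and SLC7A14 (0.14) kept 1 sign in all pairs and did not pass.

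**Figure D4:**
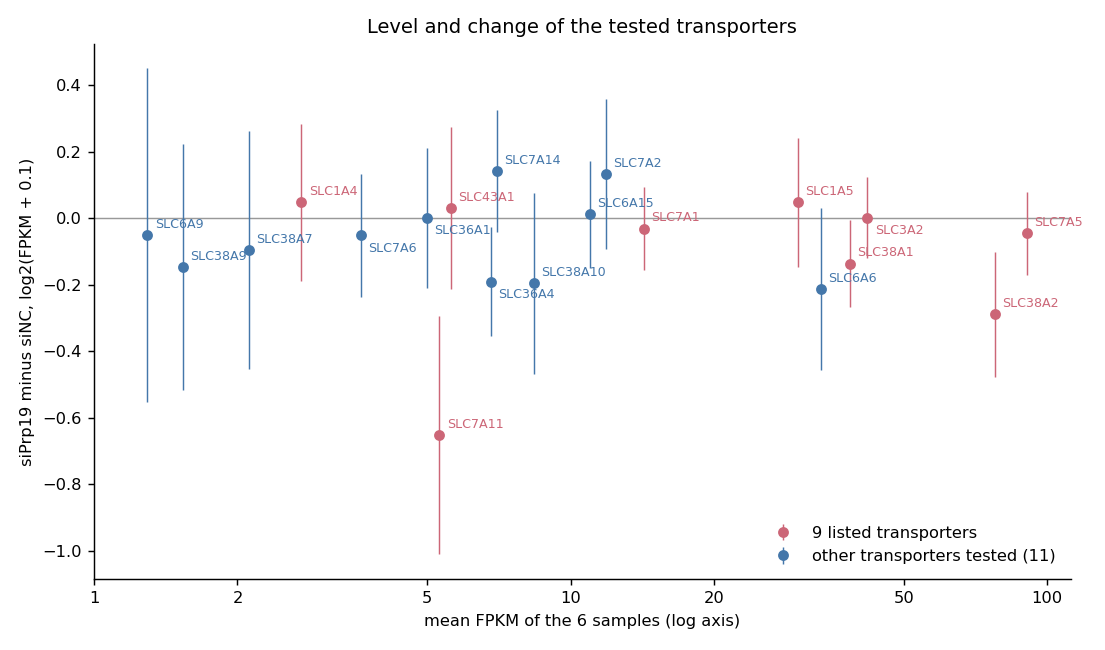
Mean FPKM of the 6 samples (log axis) against the change with siPrp19 (log2(FPKM + 0.1)), for the 9 members in red and the 11 other tested transporters in blue, with 95% intervals of the paired fit. SLC7A11 at −0.65 and SLC38A2 at −0.29 are the lowest points, and the intervals of SLC7A11, SLC38A2, SLC38A1 and SLC36A4 lie below 0.

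Genes that sense, answer to or use the imported amino acids were read from 3 further lists. The lists share some genes, among them SESN2, ASNS, PSAT1 and PHGDH, and SLC38A9 is also among the other transporters. Beside them, 21.3% of all tested genes were lower and 19.2% higher in all pairs. Voom with pairing called 4.41% of its genes lower and 2.65% higher. Of 36 tested genes of mTORC1 and its amino acid sensors, 4 were lower and 4 higher in all pairs, with a median of 0.03, and 0 passed in any of the fits above, of which voom held 30. Among the genes with 1 sign in all 3 pairs, NPRL2 (0.20), MLST8 (0.16) and RRAGD (0.14) had the largest positive and LAMTOR3 (−0.19), TSC1 (−0.18) and SLC38A9 the largest negative log2 changes. Of 21 tested genes of the GCN2-ATF4 response, the transcriptional answer to amino acid shortage, 3 were lower and 7 higher in all pairs, with a median of 0.03. ATF4 itself had 158.9, 238.5 and 161.2 FPKM with siNC and 149.7, 243.4 and 173.8 FPKM with siPrp19. By voom with pairing, which held 20 of the 21, PCK2 (0.28, adjusted p = 0.0110), DDIT4 (0.26, adjusted p = 9.55e-04) and PHGDH (0.17, adjusted p = 0.0357) passed as higher and PSAT1 (−0.24, adjusted p = 0.0112) and STC2 (−0.24, adjusted p = 0.00512) as lower. ATF3 (−0.26) did not pass. DDIT4, an inhibitor of mTORC1, had 313.7, 387.2 and 43.5 FPKM with siNC and 383.9, 466.0 and 51.0 FPKM with siPrp19, so replicate 3 was far below the others in both groups.

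Of 29 tested genes of amino acid metabolism, 10 were lower and 5 higher in all pairs, with a median of −0.06. The shares over all tested genes were 21.3% lower and 19.2% higher. In voom with pairing, which held 26 of the 29, 3 passed as lower and 1 as higher, beside 4.41% and 2.65% of its genes. PSAT1 and PHGDH are among these and were also counted in the GCN2-ATF4 list. TXNRD1, thioredoxin reductase, had 47.0, 59.8 and 74.9 FPKM with siNC and 35.5, 54.2 and 60.8 FPKM with siPrp19 (log2 change −0.28, voom adjusted p = 0.00108), so that, as for SLC7A11, each siPrp19 sample was below its partner and replicate 3 was the highest. BCAT1, which starts the breakdown of branched-chain amino acids in the cytosol, had −0.20 (voom adjusted p = 0.00992), and PSAT1 and PHGDH of serine synthesis moved in opposite directions. BCAT2 (0.17) and ASL (0.16) were higher in all pairs and did not pass.

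**Figure D5:**
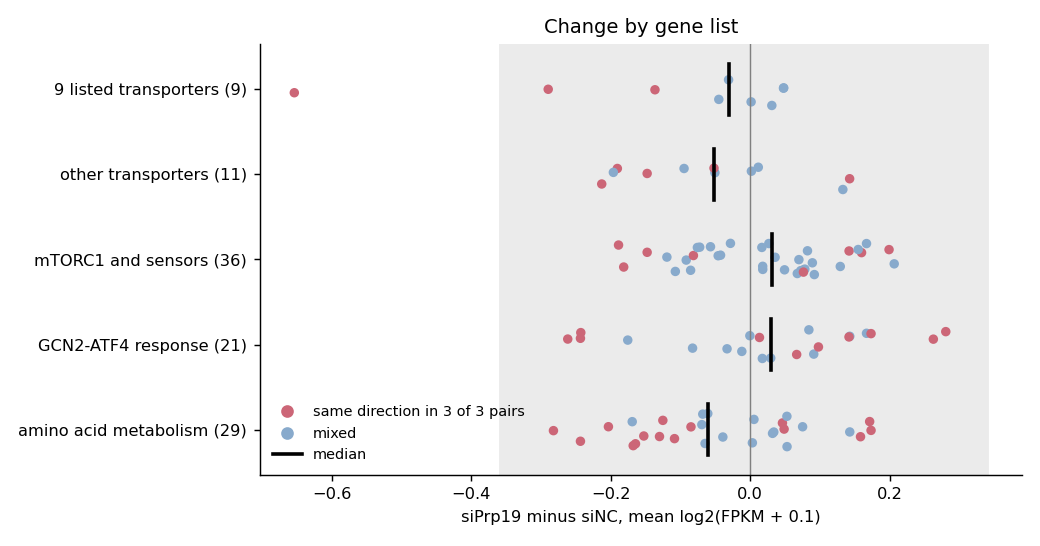
Mean change with siPrp19 (log2(FPKM + 0.1)) of each tested gene in the 5 lists, with the number tested in brackets. Red points moved the same way in 3 of 3 pairs, blue points did not, black bars are medians and the grey band is the 5th to the 95th percentile of all tested genes. The medians lie between −0.06 and 0.03, and SLC7A11 is the 1 point outside the band.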

How the data were processed

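RNA-seq data of 3 siNC and 3 siPrp19 samples of SK-N-BE(2) were analysed, grouped by the treatment label. The authors deposited FPKM values for each sample, and the submitters' processing notes name HISAT2 2.0.5, featureCounts 1.5.0-p3 and hg38. The annotation is not given in the sources used here. Symbols, positions and exon lengths were taken from GENCODE release 29, which held 58039 of the 58302 identifiers. FPKM times length gave whole reads, within 0.05 read, in all samples for 97.3% of these genes, and for 95.9% of the 37521 that were not 0 in all samples. The library kit is not described as marking strand, so a gene and its antisense partner cannot be told apart.

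The 14462 genes averaging 1 FPKM or more entered limma 3.58.1 (R 4.3.3, eBayes with trend) on log2(FPKM + 0.1), which understates the change of low genes. The main design had no block. The pairing of replicate numbers comes from the labels, and its check gave a mean r of 0.53. Alternatives were a pseudocount of 1, no filter, a mean of at least 5 FPKM, TPM, quantile normalization, robust estimation without the trend, the replicate block, limma voom on recovered reads, and samples or pairs left out. Voom with the block and a pair left out was chosen after seeing the data. The limma fits on log values, with and without the block, were tested on simulated data in which both groups shared the siNC replicates. Voom was not tested in this way. The members, gene lists and rules were chosen with earlier results of these data known. Named genes were the 9 members, PRPF19, overlapping genes and pseudogenes, from each list those called or, if none was, the 3 largest rises and falls that held in all pairs, and the 3 nearest profiles of the 3 most variable members. ATF4 was named outside this rule, after its values were seen. Some genes that the rule covers are not reported here.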

Additional observations from a re-analysis of the deposited data

How the results depend on the processing

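The 0 genes, members and other transporters called stayed at 0 across the 6 fits that left out 1 sample (0 to 0), and with a pseudocount of 1, no filter, TPM, quantile normalization and the replicate block. With robust estimation and without the trend, 1 gene was called. The replicate block limited to genes averaging 5 FPKM or more called 124 genes, and voom with the block 961. Voom with the block called 2 members and 1 other transporter. Its p-values, with all pairs or with 1 left out, rest mostly on a spread pooled over genes. With the pair of replicate 1, 2 or 3 left out, voom called 267, 634 and 1231 genes. Among these were 1, 2 and 2 members, and 0, 1 and 3 other transporters. The cause was not tested.

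With 1 sample left out, the log2 change of 7 members crossed 0: SLC7A5 (−0.18 to 0.10), SLC3A2 (−0.21 to 0.24), SLC1A5 (−0.17 to 0.26), SLC7A1 (−0.18 to 0.12), SLC38A1 (−0.24 to 0.0061), SLC1A4 (−0.20 to 0.30) and SLC43A1 (−0.0464 to 0.18). These fits were unpaired, so leaving out a sample kept its same-numbered partner and let replicate differences into the change. With the replicate block and 1 pair left out, SLC7A5 became 0.0012 (voom 0.0011), SLC3A2 −0.0356 (voom −0.0353), SLC1A5 −0.0349 (voom −0.0266) and SLC43A1 −0.0784 (voom −0.0667). SLC38A1 (−0.1825 to −0.1005), SLC7A1 (−0.0485 to −0.0173) and SLC1A4 (0.0049 to 0.0983) kept their sign with a pair left out. On TPM values, SLC7A5 joined SLC7A11, SLC38A1 and SLC38A2 as lower in 3 of 3 pairs. SLC7A11 (−1.07 to −0.10) and SLC38A2 (−0.62 to −0.06) kept their direction in all fits. SLC1A4 is below a mean of 5 FPKM and was not in that fit. Adding the replicate block changed the calls of SLC7A11 and SLC38A2 in voom only, and that of PRPF19 in voom and at a mean of 5 FPKM, and of no other member in the fits run. For SLC1A4 and SLC43A1, the fewest reads per sample (236 and 315) limit the precision.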
